A study of Mus musculus with 8 samples.

Results

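The genes described here are 46 named genes of the cell cycle and of DNA replication, measured in mouse liver. They were taken from a list of gene symbols by function, covering cyclins and their kinases, kinase inhibitors, origin licensing and helicase factors, nucleotide supply, mitotic kinases and checkpoint proteins, spindle proteins and the proliferation marker Mki67. Each gene was represented by the probe set that the array annotation assigns to that gene alone and that had the highest mean over the 8 arrays. By this rule 45 of the 46 genes were measured, out of 12393 genes in all. Ccnb1, which encodes cyclin B1, had no probe set assigned to it alone and was not analysed here.

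A dividing cell first licenses its replication origins by loading the MCM helicase, then copies its DNA under cyclin E and cyclin A kinases, and then enters mitosis under cyclin B and Cdk1. Inhibitors such as p21, encoded by Cdkn1a, hold the kinases back, and many mitotic genes are silent in resting cells and are switched on together late in the cycle. Most hepatocytes of an adult liver rest outside the cycle, and Kupffer cells, endothelial cells and infiltrating leukocytes are among the other cells of the tissue that can divide.

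Liver RNA was hybridised to Affymetrix arrays from mice of 4 genotypes on a C57BL background, with 2 arrays for each genotype. The genotypes were wild-type, SHP-/-, OB-/- (a leptin knockout) and OB-/-/SHP-/-, which lacks both genes. SHP, the small heterodimer partner encoded by Nr0b2, is an orphan nuclear receptor that cannot bind DNA itself and represses the receptors it pairs with, and leptin is the adipocyte hormone whose loss makes mice eat more and become obese. All mice were fed the same standard chow, and the labels give no treatment, age or sex. Whether each array was from a mouse of its own is not stated, so p-values here reflect the variation among arrays, which may be technical. Both deletions are carried by the whole animal, so leptin loss in liver and the obesity of the animal cannot be told apart. Values are the authors' deposited values on a log2 scale, on which a difference of 1 is a 2-fold change, and they cannot be compared between genes as amounts of RNA.

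The arrays were alike in scale, with medians between 5.45 and 5.56, and arrays of 1 genotype correlated at 0.992 to 0.995 over all genes. Nr0b2 read 8.74 and 8.71 (wild-type), 7.78 and 8.31 (SHP-/-), 8.01 and 8.01 (OB-/-), and 7.11 and 6.66 (OB-/-/SHP-/-). It was thus lower without SHP but not absent, and its fall in lean mice did not pass the test (adjusted p = 0.286, limma). Nr0b2 was also lower in OB-/-, where SHP is intact, than in wild-type, at -0.72 (adjusted p = 0.0258, limma). Where its probes lie relative to the deleted part is not given, so Nr0b2 is a weak check of the labels. Hepatocyte markers were high in every genotype, with 7 of 8 measured and a log2 of their summed level between 16.06 and 16.23. A pair of arrays stood apart in single genes, OB-/- replicate 1 with Xist at 7.41 against 4.31 to 4.70 on the other arrays, and SHP-/- replicate 1 with Fos at 11.95. Among the genes described here, 17 had a mean below 4.83, the 40th percentile of the table and so lie in the dim part of the range.

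Loss of leptin changed 20 of these genes with SHP present and 15 with SHP absent, and loss of SHP changed 1 gene in lean and 1 in leptin-null mice. With SHP present, 17 of the 45 genes were higher in OB-/- than in wild-type liver and 3 were lower, while 7.58% of all genes were higher and 9.36% lower (limma, Benjamini-Hochberg adjusted p under 0.05 over all genes). With SHP absent, 12 were higher and 3 lower in OB-/-/SHP-/- than in SHP-/- liver, against 4.95% and 5.62% of all genes. The genes that rose were chiefly those of mitosis, with the kinase Cdk1, cyclins A2 and B2, Birc5, Mad2l1, Cdc20, Ube2c and Mki67, together with the kinase inhibitors Cdkn1a and Cdkn2c. The genes that fell were Mcm10, Mcm7 and Cdt1, of origin licensing and the helicase, and, without SHP, Cdk4. The lower genes were 6.67% of the 45 in each comparison, so falls were about as frequent as over all genes or less so. The median difference of the 45 genes was 0.31 in the first comparison and 0.30 in the second, beside -0.01 and 0.03 over all genes. In bulk tissue, more RNA per cell and more cells of a dividing type cannot be told apart.

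**Figure D1:**
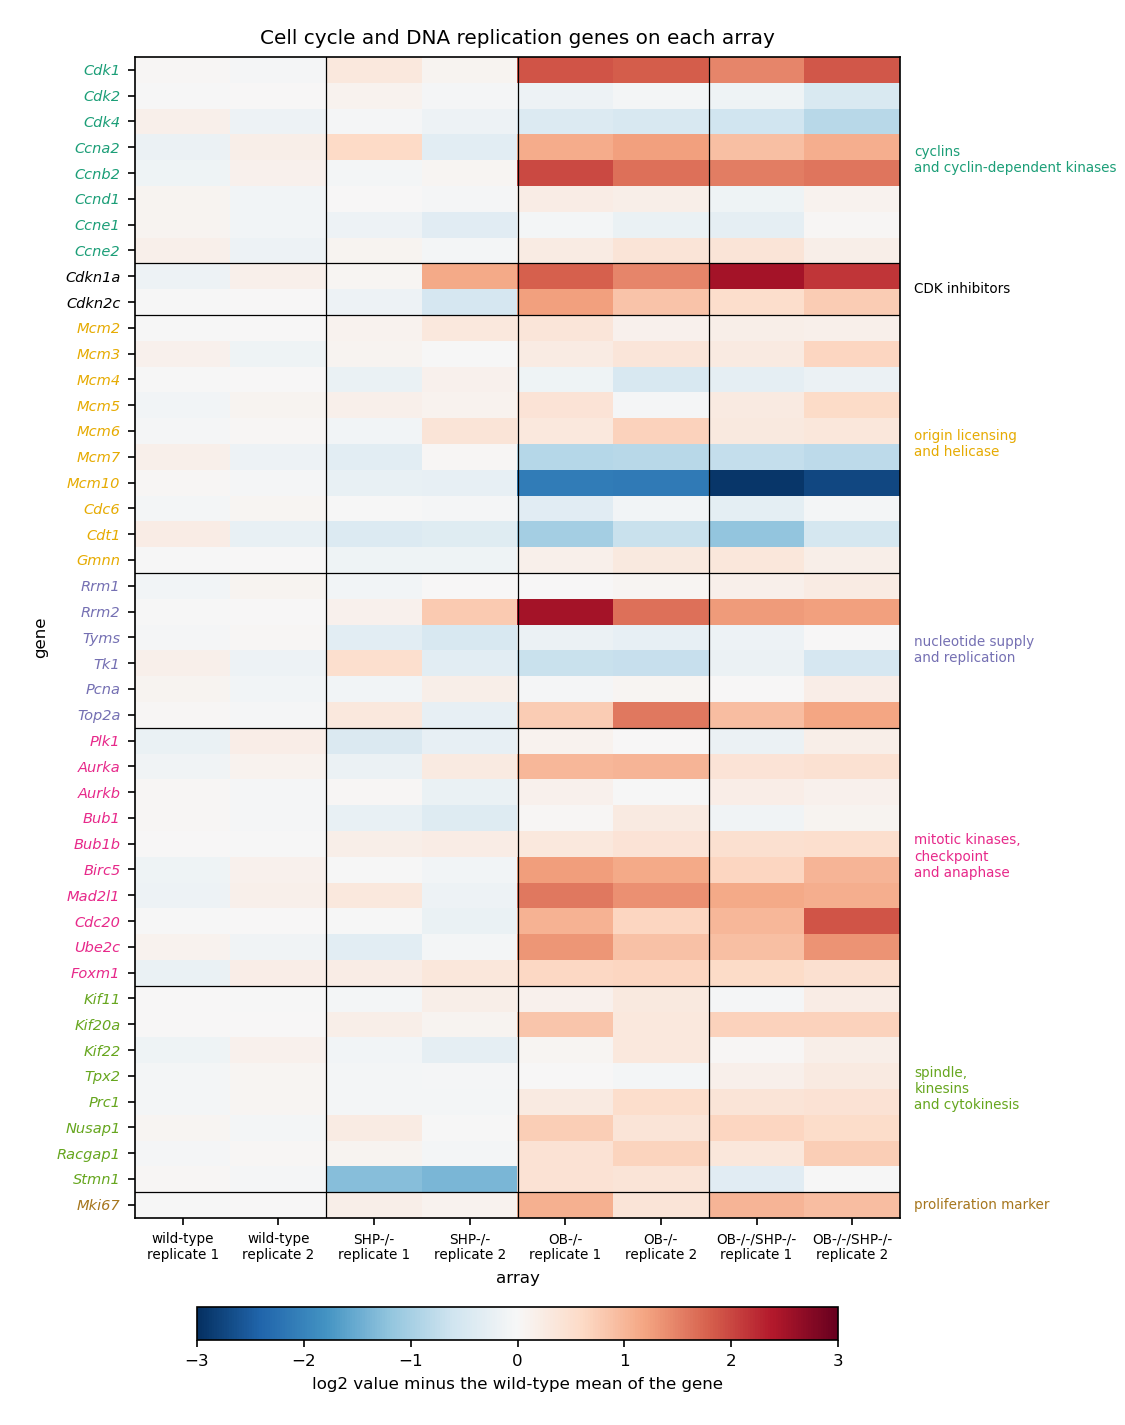
Each row is 1 of the 45 measured genes, ordered by role, each column 1 array, and the colour the log2 value minus that gene's wild-type mean, with red above it and blue below. The 4 arrays of leptin-null mice (OB-/- and OB-/-/SHP-/-) are above the 4 other arrays for 22 genes, Cdk1, Ccnb2, Cdkn1a and Mad2l1 among them, and below them for 6, Mcm7, Mcm10 and Cdt1 among them.

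In many of these genes the arrays with and without leptin did not overlap. For 22 of the 45 genes, 48.9%, all 4 leptin-null arrays were above all 4 arrays with leptin, and 11.9% of all genes had that order. In 6 genes, 13.3%, all 4 were below, which is the share over all genes (13.3%). This count was added after the values had been seen and is a description. The array median over the 45 genes was 4.75 and 4.76 (wild-type), 4.70 and 4.88 (SHP-/-), 5.41 and 5.52 (OB-/-), and 5.25 and 5.54 (OB-/-/SHP-/-).

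Other measures moved with the same genotypes. The log2 of the summed level of 12 macrophage and Kupffer cell markers, all measured, was 10.31 to 10.40 in wild-type, 11.23 to 11.62 in SHP-/-, 11.76 to 11.79 in OB-/-, and 12.00 to 12.38 in OB-/-/SHP-/-. Of these markers 10 were higher in OB-/- than in wild-type and 4 higher in OB-/-/SHP-/- than in SHP-/-. Between SHP-/- and wild-type the markers had a median difference of 0.84 with 1 called, and the cell cycle genes a median of 0.00. For T, B and NK cell markers, 11 of 15 were measured, 9 of them with a mean below the 40th percentile, and the log2 sums lay between 8.03 and 8.36 on all arrays with none called. Of 7 endothelial and 7 stellate cell markers, 3 of each were higher in OB-/- than in wild-type, beside 7.58% of all genes. In OB-/-/SHP-/- against SHP-/-, 2 endothelial and 0 stellate cell markers were higher, beside 4.95% of all genes. Erythroid markers summed to 8.80 to 8.92 in OB-/-/SHP-/- and 9.18 to 9.72 elsewhere, and cholangiocyte markers to 6.32 to 6.62 throughout. Neutrophil markers summed to between 7.55 and 8.05 apart from 1 SHP-/- array at 9.002. Pancreas genes summed to 9.85 to 10.16 in OB-/- against 6.67 to 6.76 in the lean genotypes and 7.16 to 7.44 in OB-/-/SHP-/-. Of the 7 hepatocyte markers, 2 were lower in OB-/- than in wild-type, Hnf4a, a transcription factor of hepatocytes, by -0.76 (adjusted p = 0.00338, limma) and Cps1, of the urea cycle, by -0.51 (adjusted p = 0.025), and the median difference of the list was -0.26. In OB-/-/SHP-/- the list differed by a median of -0.14 from SHP-/-, with none called, and by -0.20 from wild-type, with Hnf4a called (-0.44, adjusted p = 0.0493). The difference between the 3 prime and 5 prime control probe sets of Gapdh, a sign of RNA quality, was 0.79 and 1.00 (wild-type), 0.19 and 0.35 (SHP-/-), -0.07 and -0.01 (OB-/-), and 0.03 and 0.11 (OB-/-/SHP-/-). The same difference of Actb was 1.87 to 1.89 in wild-type, 1.25 to 1.35 in SHP-/- and 0.77 to 0.93 on the leptin-null arrays. The part of these measures in the changes of the cell cycle genes was not tested.

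**Figure D2:**
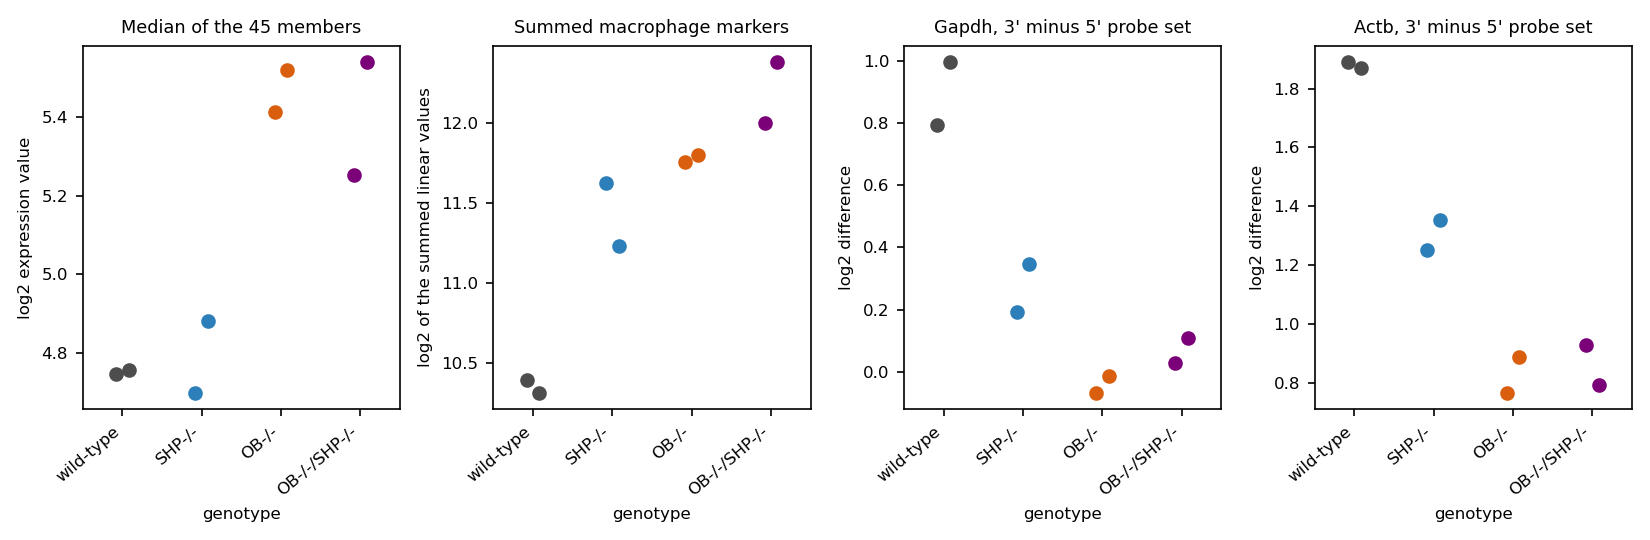
Each panel plots 1 point per array by genotype: the median log2 value of the 45 genes, the log2 of the summed macrophage marker level, and the 3 prime minus 5 prime log2 difference of Gapdh and of Actb. The 45-gene median is between 4.70 and 4.88 on the 4 arrays with leptin and between 5.25 and 5.54 on the leptin-null arrays, while the macrophage sum is also higher in SHP-/- than in wild-type.

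Promoters are shown for Cdk1, Ccnb2, Cdc20 and Ube2c, which rose in both leptin comparisons, and for Mcm10, the gene with the largest fall. They are printed because the motifs in them are textbook elements of cell cycle control, so they do not stand for all genes that rose. The cell cycle genes homology region, or CHR, binds the MuvB complexes that silence mitotic genes in resting cells and, with B-Myb and FoxM1, switch them on before mitosis. The CCAAT box binds NF-Y and is often found near a CHR, and E2F sites serve genes of the start of replication. The windows are the 250 bases before the transcription start in RefSeq, mouse build GRCm38.p6, and 36 of the 46 genes have one. They were searched on both strands for TTTGAA (CHR), CCAAT, and TTTGGCGC, TTTCCCGC, TTTCGCGC or TTTGCCGC (E2F), and matches, in either orientation, are in capitals below. No matches of different motifs overlapped in these genes' windows. The windows printed are Cdk1 at chr10:69352913-69353162 (minus strand), Ccnb2 at chr9:70421555-70421804 (minus), Cdc20 at chr4:118437344-118437593 (minus), Ube2c at chr2:164769679-164769928 (plus) and Mcm10 at chr2:5012792-5013041 (minus), each read 5′ to 3′ towards the gene.
Cdk1: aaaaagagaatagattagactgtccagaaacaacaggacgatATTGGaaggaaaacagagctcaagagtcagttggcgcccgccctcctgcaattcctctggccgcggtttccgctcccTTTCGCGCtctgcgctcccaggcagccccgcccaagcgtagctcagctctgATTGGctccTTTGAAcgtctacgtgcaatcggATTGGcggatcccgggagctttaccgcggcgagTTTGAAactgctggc
Ccnb2: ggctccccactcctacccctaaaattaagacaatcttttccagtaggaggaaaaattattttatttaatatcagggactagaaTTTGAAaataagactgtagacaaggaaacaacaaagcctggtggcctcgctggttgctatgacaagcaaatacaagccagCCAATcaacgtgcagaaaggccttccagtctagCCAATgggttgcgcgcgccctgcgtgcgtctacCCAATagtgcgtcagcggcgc
Cdc20: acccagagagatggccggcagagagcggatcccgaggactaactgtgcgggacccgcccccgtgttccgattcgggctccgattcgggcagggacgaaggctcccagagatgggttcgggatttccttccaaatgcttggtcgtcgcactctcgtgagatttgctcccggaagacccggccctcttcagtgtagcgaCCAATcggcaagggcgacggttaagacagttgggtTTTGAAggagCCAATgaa
Ube2c: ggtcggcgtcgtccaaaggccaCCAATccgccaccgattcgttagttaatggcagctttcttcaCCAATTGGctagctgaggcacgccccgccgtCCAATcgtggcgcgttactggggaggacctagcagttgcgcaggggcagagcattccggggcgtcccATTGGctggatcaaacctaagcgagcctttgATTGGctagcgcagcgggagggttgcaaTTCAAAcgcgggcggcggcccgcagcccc
Mcm10: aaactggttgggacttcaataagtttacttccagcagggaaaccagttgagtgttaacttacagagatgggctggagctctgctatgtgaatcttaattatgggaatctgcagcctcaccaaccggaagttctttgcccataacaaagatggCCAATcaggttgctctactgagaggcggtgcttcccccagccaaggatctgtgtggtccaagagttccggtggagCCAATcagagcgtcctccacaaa

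The Cdk1 window holds 2 CHR matches, 3 CCAAT boxes and 1 E2F match, and the last CHR match starts 15 bases before the transcription start. The Cdc20 window has its CHR match at 18 bases before the start and the Ube2c window 29 bases before it. The Ccnb2 window has 3 CCAAT boxes in its last 87 bases and a CHR match farther out, at 167 bases. The Mcm10 window holds 2 CCAAT boxes and no match to TTTGAA or the E2F letters. The windows of Birc5, Mad2l1, Cdkn1a and Cdkn2c, which also rose in both leptin comparisons and are not printed, held no match to any of these motifs. Over the genes with a window, 6 of the 14 that rose in OB-/- held a CHR match (42.9%), namely Cdk1, Ccnb2, Cdc20, Ube2c, Mki67 and Top2a, and all 6 also held a CCAAT box. A CCAAT box was in 9 of the 14 (64.3%) and in 13 of the 18 that were not called (72.2%). Of those 18, 4 held both motifs (22.2%: Mcm2, Prc1, Kif22 and Kif11), and of the 3 that fell none held a CHR match. Among 32851 windows of all genes, 16.0% held a CHR match, 33.8% a CCAAT box, 1.86% an E2F match and 5.55% both a CHR match and a CCAAT box. These are matches of letters, with no measurement of binding.

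Cyclins and cyclin-dependent kinases drive the transitions of the cycle, and of the 8 measured 3 were higher and none lower in OB-/- than in wild-type. Cdk1, the kinase that triggers mitosis, read 4.11 and 4.03 (wild-type), 4.39 and 4.14 (SHP-/-), 5.96 and 5.90 (OB-/-), and 5.53 and 5.94 (OB-/-/SHP-/-). All leptin-null arrays were above all others by more than the gap between arrays of 1 genotype. The difference was 1.86 ± 0.16 (SE, adjusted p = 3.1e-05) with SHP, a 3.62-fold rise, and 1.47 ± 0.16 (SE, adjusted p = 2.4e-04) without it, 2.77-fold. Ccnb2, the mitotic cyclin B2 that activates Cdk1, read 3.88 and 4.15 (wild-type), 3.95 and 4.08 (SHP-/-), 5.99 and 5.66 (OB-/-), and 5.54 and 5.62 (OB-/-/SHP-/-). It rose 3.50-fold in OB-/-, by 1.81 ± 0.16 (SE, adjusted p = 2.8e-05), and 2.96-fold in OB-/-/SHP-/- against SHP-/-, by 1.57 ± 0.16 (SE, adjusted p = 1.2e-04). Ccna2, cyclin A2 of S phase and early mitosis, read 4.41 and 4.74 (wild-type), 5.17 and 4.27 (SHP-/-), 5.68 and 5.81 (OB-/-), and 5.48 and 5.66 (OB-/-/SHP-/-). Of the SHP-/- arrays replicate 1 was well above replicate 2, yet below every leptin-null array. The further probe set of Ccna2, which read 4.66 and 4.62 in wild-type, moved less and was called in neither leptin comparison. It differed by 0.42 (adjusted p = 0.0541, limma over all probe sets) with SHP and by 0.33 (adjusted p = 0.151) without it. By the probe set used, Ccna2 rose by 1.17 ± 0.24 (SE, adjusted p = 0.00754) with SHP and by 0.85 ± 0.24 (SE, adjusted p = 0.0478) without it. The first call was lost without wild-type replicate 1 or OB-/- replicate 2 (highest adjusted p 0.0859) and the second without either wild-type array, SHP-/- replicate 2, either OB-/- array or either OB-/-/SHP-/- array (highest adjusted p 0.283).

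Of the genes that act earlier, at the entry from rest, Cdk4 fell without SHP and Ccnd1, cyclin D1, was not called. Cdk4 read 7.78 and 7.47 (wild-type), 7.58 and 7.46 (SHP-/-), 7.21 and 7.15 (OB-/-), and 7.03 and 6.80 (OB-/-/SHP-/-). All leptin-null arrays were lower than all others, and the fall was called without SHP, at -0.61 ± 0.15 (SE, adjusted p = 0.0279), but not with SHP, at -0.44 ± 0.15 (SE, adjusted p = 0.0707). The call was lost without either SHP-/- array or OB-/-/SHP-/- replicate 2 (highest adjusted p 0.165). Cdk2, the partner of cyclins E and A, read 6.78 and 6.81 (wild-type), 6.89 and 6.77 (SHP-/-), 6.64 and 6.73 (OB-/-), and 6.67 and 6.33 (OB-/-/SHP-/-), and Ccnd1 read 6.32 and 6.16 (wild-type), 6.25 and 6.21 (SHP-/-), 6.47 and 6.42 (OB-/-), and 6.12 and 6.34 (OB-/-/SHP-/-). Ccne1, cyclin E1, read 5.80 and 5.65 (wild-type), 5.57 and 5.39 (SHP-/-), 5.67 and 5.52 (OB-/-), and 5.46 and 5.75 (OB-/-/SHP-/-), and Ccne2, its paralogue, read 2.90 and 2.61 (wild-type), 2.85 and 2.69 (SHP-/-), 3.00 and 3.14 (OB-/-), and 3.15 and 2.93 (OB-/-/SHP-/-). Cdk2 was lower and Ccne2 higher on all leptin-null arrays, but by small steps, and none of these 4 genes was called in any of the 6 comparisons.

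By the probe sets used, both inhibitors of cyclin-dependent kinases on the list rose without leptin, in the presence and in the absence of SHP. Cdkn1a, which encodes p21 and is a main target of p53, read 6.80 and 7.09 (wild-type), 6.99 and 8.09 (SHP-/-), 8.73 and 8.40 (OB-/-), and 9.44 and 9.09 (OB-/-/SHP-/-). The SHP-/- arrays differed by more than 1 unit, and the higher of them, replicate 2, was the nearest to the leptin-null arrays. Cdkn1a rose by 1.62 ± 0.29 (SE, adjusted p = 0.00337) in OB-/- (3.08-fold) and by 1.72 ± 0.29 (SE, adjusted p = 0.00401) in OB-/-/SHP-/- against SHP-/- (3.30-fold). Its further probe set differed by 0.10 (adjusted p = 0.877, limma over all probe sets) in the first comparison and by 1.17 in the second. With the probe sets averaged, Cdkn1a was not called in OB-/- against wild-type (0.86, limma adjusted p = 0.082). Cdkn2c, which encodes the Cdk4 and Cdk6 inhibitor p18, read 7.41 and 7.45 (wild-type), 7.29 and 6.93 (SHP-/-), 8.67 and 8.28 (OB-/-), and 7.97 and 8.21 (OB-/-/SHP-/-). Here too the leptin-null arrays were all above the rest, with a rise of 1.04 ± 0.17 (SE, adjusted p = 0.00226) with SHP and 0.98 ± 0.17 (SE, adjusted p = 0.00555) without it. Each of these 4 calls held with any single array left out.

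**Figure D3:**
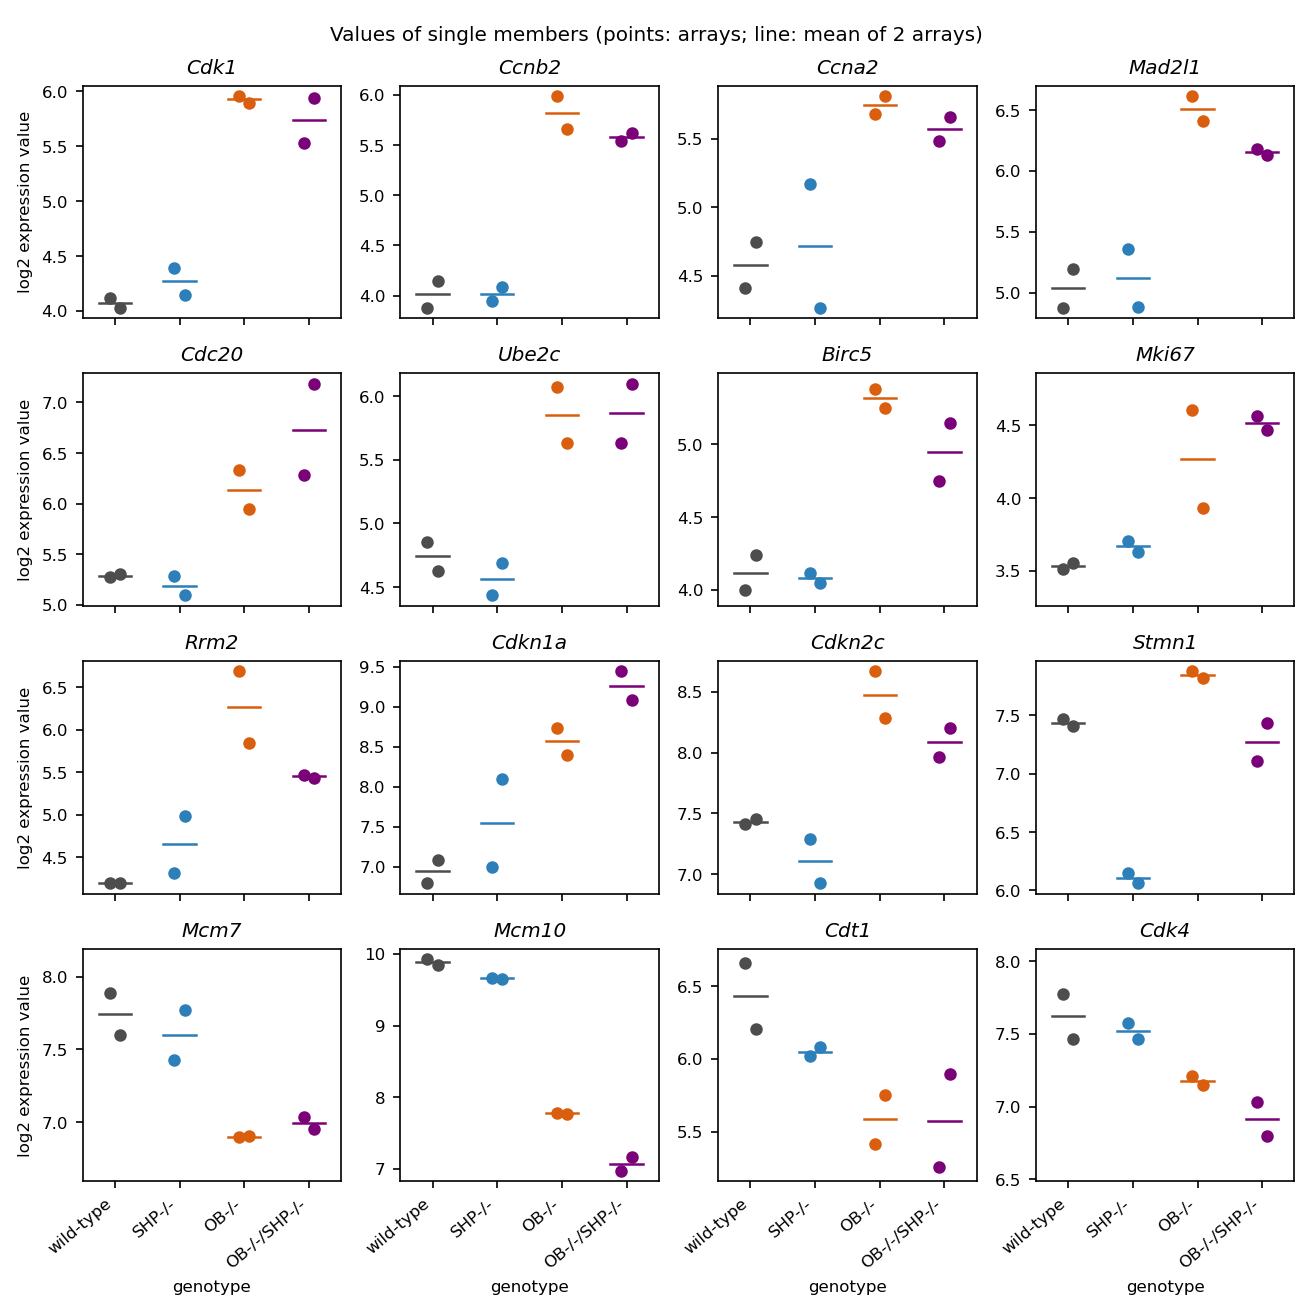
Log2 values of single genes are plotted by genotype, with 1 point per array and a line at the mean of 2 arrays. Cdk1 lies between 4.03 and 4.39 on the arrays with leptin and between 5.53 and 5.96 on the leptin-null arrays, Mcm10 runs the opposite way, and Stmn1 is lowest in SHP-/-.

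Of 10 genes of origin licensing and the helicase, 3 were lower and none higher in OB-/-. Mcm10, which joins the loaded helicase to the polymerases, read 9.93 and 9.85 (wild-type), 9.67 and 9.65 (SHP-/-), 7.79 and 7.76 (OB-/-), and 6.97 and 7.16 (OB-/-/SHP-/-). The genotypes did not overlap with and without leptin, and the OB-/-/SHP-/- arrays were the lowest. It fell 4.33-fold with SHP, a difference of -2.11 ± 0.13 (SE, adjusted p = 1.9e-06), and 6.03-fold without it, -2.59 ± 0.13 (SE, adjusted p = 4.6e-07). Both calls held with any 1 array left out. The further probe set of Mcm10, which read 4.25 and 4.64 in wild-type, moved less, at -0.70 (adjusted p = 0.0184, limma over all probe sets) with SHP and -0.42 (adjusted p = 0.162), not called, without it. Mcm7, a subunit of the helicase ring, read 7.89 and 7.60 (wild-type), 7.43 and 7.77 (SHP-/-), 6.90 and 6.90 (OB-/-), and 7.04 and 6.95 (OB-/-/SHP-/-), again with all leptin-null arrays below all others. Its differences were -0.85 ± 0.16 (SE, adjusted p = 0.0043) with SHP and -0.61 ± 0.16 (SE, adjusted p = 0.0338) without it, the first lost without wild-type replicate 1 (adjusted p = 0.0524) and the second without SHP-/- replicate 2, either OB-/- array or either OB-/-/SHP-/- array (highest adjusted p 0.214). Cdt1, which loads the ring onto origins, read 6.66 and 6.20 (wild-type), 6.02 and 6.08 (SHP-/-), 5.41 and 5.75 (OB-/-), and 5.25 and 5.89 (OB-/-/SHP-/-). It fell in OB-/- by 0.85 ± 0.22 (SE, adjusted p = 0.0226), lost without wild-type replicate 1 or either OB-/- array (highest adjusted p 0.198), and its difference without SHP was -0.47 ± 0.22 (SE, adjusted p = 0.204).

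The other helicase subunits were not called in any comparison. Mcm6 read 4.68 and 4.77 (wild-type), 4.64 and 5.11 (SHP-/-), 5.05 and 5.43 (OB-/-), and 5.01 and 5.07 (OB-/-/SHP-/-), and Mcm3 read 5.03 and 4.76 (wild-type), 4.98 and 4.88 (SHP-/-), 5.14 and 5.26 (OB-/-), and 5.16 and 5.54 (OB-/-/SHP-/-). Gmnn, which encodes geminin, the inhibitor of Cdt1, read 6.74 and 6.77 (wild-type), 6.61 and 6.62 (SHP-/-), 6.89 and 7.04 (OB-/-), and 7.09 and 6.92 (OB-/-/SHP-/-). On these 3 genes the leptin-null arrays tended to be the higher ones, and for Mcm3 and Gmnn they were so without overlap, but none of the 3 was called. Mcm6 was nearest, with 0.51 ± 0.18 (SE, adjusted p = 0.0759) in OB-/- against wild-type. Mcm5 read 3.11 and 3.26 (wild-type), 3.33 and 3.29 (SHP-/-), 3.60 and 3.15 (OB-/-), and 3.46 and 3.76 (OB-/-/SHP-/-), and its arrays with and without leptin overlapped. Mcm2, Mcm4 and Cdc6, the remaining licensing genes, were not called in any comparison, and their single-array values lay between 4.75 and 5.12, between 4.66 and 5.26, and between 2.75 and 3.16.

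Of 6 genes of nucleotide supply and replication, 2 rose in OB-/-. Rrm2, the regulated subunit of ribonucleotide reductase, which makes deoxynucleotides, read 4.20 and 4.20 (wild-type), 4.32 and 4.98 (SHP-/-), 6.69 and 5.84 (OB-/-), and 5.47 and 5.44 (OB-/-/SHP-/-). The OB-/- arrays were the highest, and the lowest leptin-null array was above the highest array with leptin. The rise was 2.07 ± 0.26 (SE, adjusted p = 3.7e-04) with SHP, 4.19-fold, and 0.80 ± 0.26 (SE, adjusted p = 0.076) without SHP, which was not called. The test of the difference between these differences was not passed either, at -1.27 ± 0.37 (SE, adjusted p = 0.261). Top2a, the topoisomerase that untangles sister chromatids, read 3.69 and 3.62 (wild-type), 3.96 and 3.41 (SHP-/-), 4.43 and 5.24 (OB-/-), and 4.59 and 4.83 (OB-/-/SHP-/-). It rose by 1.18 ± 0.25 (SE, adjusted p = 0.00808) with SHP and 1.03 ± 0.25 (SE, adjusted p = 0.0244) without it. The first call was lost without either wild-type array or OB-/- replicate 2 (highest adjusted p 0.0771), the second without SHP-/- replicate 2 or OB-/-/SHP-/- replicate 2 (highest adjusted p 0.139).

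The other 4 genes of this group were not called in any comparison. Rrm1, the constant subunit of ribonucleotide reductase, read 5.65 and 5.80 (wild-type), 5.65 and 5.74 (SHP-/-), 5.73 and 5.77 (OB-/-), and 5.88 and 5.96 (OB-/-/SHP-/-), and Pcna, the polymerase clamp, read 9.07 and 8.90 (wild-type), 8.91 and 9.16 (SHP-/-), 8.94 and 9.03 (OB-/-), and 9.004 and 9.19 (OB-/-/SHP-/-). Both varied by less than 0.4 over all arrays. Tk1, thymidine kinase 1, read 8.05 and 7.76 (wild-type), 8.40 and 7.59 (SHP-/-), 7.23 and 7.22 (OB-/-), and 7.73 and 7.41 (OB-/-/SHP-/-), and Tyms, thymidylate synthase, read 3.85 and 3.93 (wild-type), 3.57 and 3.41 (SHP-/-), 3.71 and 3.65 (OB-/-), and 3.73 and 3.91 (OB-/-/SHP-/-). Tk1 was lowest in OB-/-, at -0.68 ± 0.23 (SE, adjusted p = 0.0667) against wild-type, and its values overlapped between OB-/-/SHP-/- and SHP-/-.

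Mitotic kinases, checkpoint and anaphase genes held the most risers, with 6 of 10 higher and none lower in OB-/-, and a median difference of 0.74. Mad2l1, which holds anaphase back until every chromosome is attached, read 4.88 and 5.20 (wild-type), 5.36 and 4.88 (SHP-/-), 6.61 and 6.41 (OB-/-), and 6.18 and 6.13 (OB-/-/SHP-/-). It rose 2.78-fold with SHP (1.48 ± 0.18 (SE, adjusted p = 3.1e-04)) and 2.05-fold without it (1.03 ± 0.18 (SE, adjusted p = 0.00468)). Cdc20, which the checkpoint inhibits and which starts anaphase, read 5.27 and 5.30 (wild-type), 5.29 and 5.09 (SHP-/-), 6.33 and 5.94 (OB-/-), and 6.28 and 7.18 (OB-/-/SHP-/-), with OB-/-/SHP-/- replicate 2 the highest. It rose by 0.85 ± 0.25 (SE, adjusted p = 0.0363) with SHP and by 1.54 ± 0.25 (SE, adjusted p = 0.00299) without it. The first Cdc20 call was lost without either wild-type array or either OB-/- array (highest adjusted p 0.231). Ube2c, the ubiquitin-conjugating enzyme of the anaphase-promoting complex, read 4.86 and 4.63 (wild-type), 4.43 and 4.69 (SHP-/-), 6.07 and 5.63 (OB-/-), and 5.63 and 6.10 (OB-/-/SHP-/-). Its rise was 1.11 ± 0.20 (SE, adjusted p = 0.00334) with SHP and 1.30 ± 0.20 (SE, adjusted p = 0.00213) without it. Birc5, which encodes survivin of the chromosomal passenger complex, read 4.00 and 4.24 (wild-type), 4.11 and 4.04 (SHP-/-), 5.38 and 5.25 (OB-/-), and 4.75 and 5.15 (OB-/-/SHP-/-). Birc5 rose by 1.20 ± 0.16 (SE, adjusted p = 5.7e-04) and 0.87 ± 0.16 (SE, adjusted p = 0.00674), the second call lost without OB-/-/SHP-/- replicate 2 (adjusted p = 0.0542). In these 4 genes no leptin-null array was as low as any array with leptin.

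Aurka and Foxm1 were called with SHP and not without it. Aurka, the kinase that matures the spindle poles, read 3.78 and 4.00 (wild-type), 3.72 and 4.15 (SHP-/-), 4.88 and 4.91 (OB-/-), and 4.29 and 4.35 (OB-/-/SHP-/-). The leptin-null arrays were again all higher, but the step was 1.01 ± 0.16 (SE, adjusted p = 0.0018) with SHP and 0.39 ± 0.16 (SE, adjusted p = 0.162) without. Foxm1, a transcription factor that switches on mitotic genes, read 4.89 and 5.29 (wild-type), 5.31 and 5.43 (SHP-/-), 5.71 and 5.74 (OB-/-), and 5.68 and 5.59 (OB-/-/SHP-/-), and the values in SHP-/- stood between those of wild-type and OB-/-. Foxm1 rose by 0.63 ± 0.15 (SE, adjusted p = 0.0168) in OB-/-, lost without wild-type replicate 1 or either OB-/- array (highest adjusted p 0.145), and its difference without SHP was 0.26 ± 0.15 (SE, adjusted p = 0.326). The interaction of the genotypes was not passed by either gene, with adjusted p = 0.454 for Aurka and 0.734 for Foxm1. Bub1b, the checkpoint protein BubR1, read 3.36 and 3.35 (wild-type), 3.54 and 3.57 (SHP-/-), 3.68 and 3.76 (OB-/-), and 3.83 and 3.87 (OB-/-/SHP-/-). Its leptin-null arrays were all above the others, at 0.36 ± 0.13 (SE, adjusted p = 0.0733) and 0.29 ± 0.13 (SE, adjusted p = 0.17), and it was called between OB-/-/SHP-/- and wild-type, at 0.49 ± 0.13 (SE, adjusted p = 0.0233), a call lost without either wild-type array or either OB-/-/SHP-/- array (highest adjusted p 0.0984). Plk1 read 4.92 and 5.33 (wild-type), 4.70 and 4.88 (SHP-/-), 5.23 and 5.13 (OB-/-), and 4.94 and 5.31 (OB-/-/SHP-/-), Aurkb read 3.37 and 3.32 (wild-type), 3.39 and 3.16 (SHP-/-), 3.48 and 3.34 (OB-/-), and 3.56 and 3.48 (OB-/-/SHP-/-), and Bub1 read 3.14 and 3.08 (wild-type), 2.89 and 2.72 (SHP-/-), 3.14 and 3.39 (OB-/-), and 3.01 and 3.20 (OB-/-/SHP-/-). These are kinases of mitotic entry, the passenger complex and the checkpoint. The SHP-/- arrays were below all other arrays for Plk1 and Bub1, the genotypes overlapped for Aurkb, and none of the 3 was called in any comparison.

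Of 8 spindle and cytokinesis genes, 3 rose in OB-/- and 1, Stmn1, rose without SHP. Kif20a, the kinesin of the central spindle, read 3.64 and 3.64 (wild-type), 3.81 and 3.72 (SHP-/-), 4.47 and 3.96 (OB-/-), and 4.33 and 4.32 (OB-/-/SHP-/-). Nusap1, which bundles spindle microtubules, read 4.12 and 4.01 (wild-type), 4.32 and 4.06 (SHP-/-), 4.81 and 4.46 (OB-/-), and 4.72 and 4.61 (OB-/-/SHP-/-). Racgap1, which helps to place the cleavage furrow, read 3.83 and 3.92 (wild-type), 3.96 and 3.81 (SHP-/-), 4.31 and 4.56 (OB-/-), and 4.23 and 4.61 (OB-/-/SHP-/-). In all 3 the leptin-null arrays were above the rest, by less than 1 unit. Their differences with SHP were 0.57 ± 0.17 (SE, adjusted p = 0.0355), 0.57 ± 0.16 (SE, adjusted p = 0.031) and 0.56 ± 0.16 (SE, adjusted p = 0.0357). Without SHP they were 0.56 ± 0.17 (SE, adjusted p = 0.0541), 0.47 ± 0.16 (SE, adjusted p = 0.0837) and 0.53 ± 0.16 (SE, adjusted p = 0.0604). The call of Kif20a was lost without either wild-type array or OB-/- replicate 1 (highest adjusted p 0.276), that of Nusap1 without either wild-type array or OB-/- replicate 1 (highest adjusted p 0.228) and that of Racgap1 without either wild-type array or either OB-/- array (highest adjusted p 0.23).

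Prc1, which crosslinks microtubules of the central spindle, read 4.41 and 4.54 (wild-type), 4.42 and 4.41 (SHP-/-), 4.74 and 5.00 (OB-/-), and 4.86 and 4.90 (OB-/-/SHP-/-). It had the same order of arrays as those 3 genes and was not called, at 0.39 ± 0.14 (SE, adjusted p = 0.0789) and 0.47 ± 0.14 (SE, adjusted p = 0.0566). Kif11, the kinesin that pushes the spindle poles apart, read 3.54 and 3.52 (wild-type), 3.47 and 3.71 (SHP-/-), 3.66 and 3.83 (OB-/-), and 3.48 and 3.75 (OB-/-/SHP-/-), and Kif22, a chromosome-arm kinesin, read 5.55 and 5.79 (wild-type), 5.58 and 5.40 (SHP-/-), 5.72 and 5.98 (OB-/-), and 5.70 and 5.84 (OB-/-/SHP-/-). Tpx2, the activator of Aurora A, read 3.54 and 3.68 (wild-type), 3.56 and 3.58 (SHP-/-), 3.62 and 3.54 (OB-/-), and 3.77 and 3.87 (OB-/-/SHP-/-). The OB-/-/SHP-/- arrays were above all others for Tpx2, the genotypes overlapped for Kif11 and Kif22, and none of the 3 was called. Mki67, which encodes the Ki-67 antigen found in cycling cells, read 3.51 and 3.56 (wild-type), 3.71 and 3.63 (SHP-/-), 4.61 and 3.93 (OB-/-), and 4.56 and 4.47 (OB-/-/SHP-/-). OB-/- replicate 2 was the lowest of the leptin-null arrays, yet above every array with leptin. Mki67 rose by 0.73 ± 0.19 (SE, adjusted p = 0.0229) with SHP and 0.85 ± 0.19 (SE, adjusted p = 0.0183) without it. The first call was lost without either wild-type array or OB-/- replicate 1 (highest adjusted p 0.177) and the second without SHP-/- replicate 2 or either OB-/-/SHP-/- array (highest adjusted p 0.0702).

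The leptin comparisons with and without SHP share no arrays, so their differences can be set side by side. Their calls are not independent, because for each gene both use the same estimate of the spread, taken from all 8 arrays. Of the 17 genes higher with SHP, 11 were also higher without SHP (64.7%), and these 11 made up 91.7% of the 12 higher without SHP. They were Cdk1, Ccna2, Ccnb2, Cdkn1a, Cdkn2c, Top2a, Birc5, Mad2l1, Cdc20, Ube2c and Mki67. That is 24.4% of the 45 genes, and 2.90% of all genes were higher in both. Mcm7 and Mcm10 were lower in both, 4.44% of the 45 genes beside 3.88% of all genes. The 6 genes called higher with SHP alone were Rrm2, Aurka, Foxm1, Kif20a, Nusap1 and Racgap1, each with a positive difference without SHP too. Over the 45 genes the differences in the 2 comparisons correlated at r = 0.895 (Spearman rho 0.874) and had the same sign in 40 (88.9%), and over all 12393 genes r was 0.721 and 72.3% had the same sign. These are correlations across genes of the same 8 arrays, and genes are not independent replicates.

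**Figure D4:**
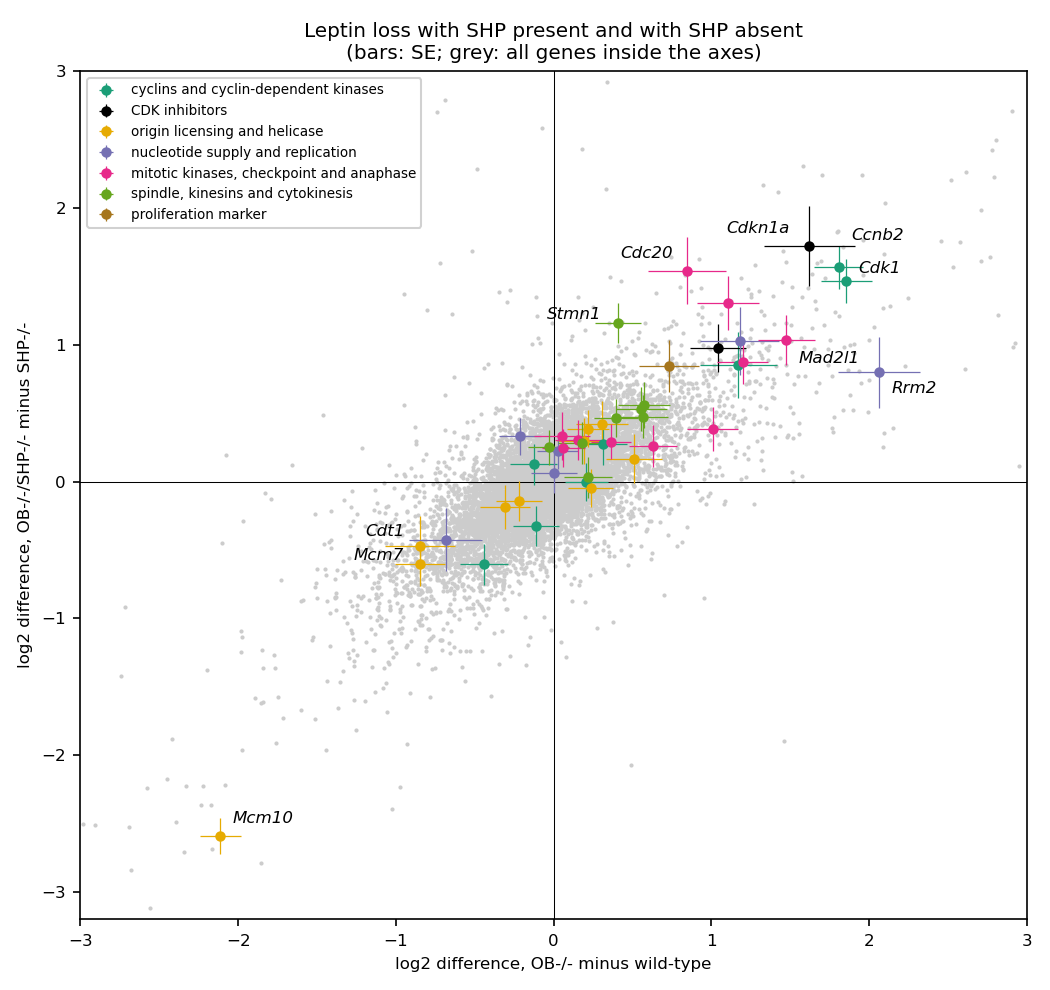
Each coloured point is 1 of the 45 genes, with its log2 difference for OB-/- minus wild-type on the horizontal axis, for OB-/-/SHP-/- minus SHP-/- on the vertical axis and SE bars, and grey points are all genes inside the axes. Cdk1, Ccnb2 and Cdkn1a lie far up on the right, Mcm10 far down on the left, and Rrm2, at 2.07 and 0.80, is farther out on the horizontal axis.

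SHP loss was followed through the same genes in lean and in obese mice. In lean mice 1 of the 45 genes was called, and in that comparison 0.323% of all genes were (0.226% higher and 0.0968% lower). That gene was Stmn1, encoding stathmin, which destabilises microtubules and is phosphorylated as cells enter mitosis. It read 7.46 and 7.41 (wild-type), 6.15 and 6.06 (SHP-/-), 7.87 and 7.82 (OB-/-), and 7.10 and 7.44 (OB-/-/SHP-/-). The SHP-/- arrays were the lowest, well below any other array. Stmn1 was 2.51-fold lower in SHP-/- than in wild-type, at -1.33 ± 0.14 (SE, adjusted p = 0.00282), and the call was lost without wild-type replicate 1 (adjusted p = 0.076). Its further probe set, which is dimmer, did not show this, with a difference of 0.0053. Stmn1 was also called higher in OB-/-/SHP-/- than in SHP-/-, at 1.16 ± 0.14 (SE, adjusted p = 5.7e-04), where its further probe set again showed little, at 0.05 (adjusted p = 0.891 in a limma fit over all probe sets). The difference of Stmn1 in OB-/- against wild-type was 0.41 ± 0.14 (SE, adjusted p = 0.0788). Cdkn1a had the largest positive difference in lean mice, 0.60 ± 0.29 (SE, adjusted p = 0.737), and without SHP-/- replicate 1 it was called, at 1.15 (adjusted p = 0.0414).

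In leptin-null mice SHP loss also changed 1 of the 45 genes, beside 2.14% of all genes (1.26% higher and 0.880% lower). Mcm10 was 1.63-fold lower in OB-/-/SHP-/- than in OB-/-, at -0.71 ± 0.13 (SE, adjusted p = 0.0169), without overlap of the arrays. This call was lost without either OB-/- array or OB-/-/SHP-/- replicate 1 (highest adjusted p 0.135), and the gene's further probe set differed by 0.30 in the opposite direction. Rrm2 and Aurka were lower and Cdc20 higher in OB-/-/SHP-/- without passing the test, at -0.81 ± 0.26 (SE, adjusted p = 0.19), -0.58 ± 0.16 (SE, adjusted p = 0.123) and 0.60 ± 0.25 (SE, adjusted p = 0.359). With OB-/-/SHP-/- replicate 1 left out, Cdc20 was called, at 1.05 (adjusted p = 0.0279), since it then rested on the higher array alone. The median difference over the 45 genes was 0.00 for SHP loss in lean mice and -0.02 in leptin-null mice.

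Whether SHP loss acted differently in lean and leptin-null mice was tested by the interaction of the genotypes. By limma 0 of the 45 genes were called, while 0.549% of all genes were called, and 0 of the 45 were called with a trended or a robust prior. An unadjusted p under 0.05 was found for 5 of the 45 genes and for 1026 of all 12393 genes, so the 5 are listed as a description only. The 5 were Stmn1, at 0.75 ± 0.20 (SE, adjusted p = 0.226), Rrm2, at -1.27 ± 0.37 (SE, adjusted p = 0.261), Tyms, at 0.55 ± 0.19 (SE, adjusted p = 0.409), Aurka, at -0.62 ± 0.23 (SE, adjusted p = 0.454), and Mcm10, at -0.48 ± 0.19 (SE, adjusted p = 0.494). The SE of an interaction is larger than that of a comparison of 2 genotypes, and for Rrm2 it was 0.37 on the log2 scale. The comparison of OB-/-/SHP-/- with wild-type, which uses arrays of the comparisons above, called 17 genes higher and 4 lower, beside 7.60% and 8.25% of all genes (15.9% together). In it Cdkn1a had the largest rise, 2.32 ± 0.29 (SE, adjusted p = 4.2e-04), and Mcm10 the largest fall, -2.82 ± 0.13 (SE, adjusted p = 2.0e-07), while its further probe set differed by -0.40 (adjusted p = 0.145). Both held with any 1 array left out, while the count fell to 7 without wild-type replicate 1, to 13 without wild-type replicate 2 and to 11 without OB-/-/SHP-/- replicate 2.

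The counts also depended on single arrays in the other comparisons. Of the 20 calls between OB-/- and wild-type, 10 held with any single array left out, those of Cdk1, Ccnb2, Cdkn1a, Cdkn2c, Mcm10, Rrm2, Aurka, Birc5, Mad2l1 and Ube2c. The count was 10 without wild-type replicate 1 and 13 without OB-/- replicate 1. Of the 15 calls between OB-/-/SHP-/- and SHP-/-, 9 held, those of Cdk1, Ccnb2, Cdkn1a, Cdkn2c, Mcm10, Mad2l1, Cdc20, Ube2c and Stmn1 (which was lost without its s_at probe set), and the count was 9 without OB-/-/SHP-/- replicate 2. Cdk1, Ccnb2, Cdkn1a, Cdkn2c, Mcm10, Mad2l1 and Ube2c are in both lists.

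For 26 of the 45 genes further probe sets were present, and they did not always give the same size of change. Both further probe sets of Rrm2 rose in OB-/-, by 1.45 and 1.52. Those of Cdt1 differed by -1.06 and -0.02, and those of Cdc20 by 1.21 and 0.20. That of Cdkn1a differed by 0.10 in OB-/- against wild-type, by 1.17 in OB-/-/SHP-/- against SHP-/- and by 1.62 in OB-/-/SHP-/- against OB-/-, the last with an adjusted p of 0.0221 in a limma fit over all probe sets. Opposite signs more than 0.5 apart in a called comparison were found for Stmn1 in SHP-/- and Mcm10 in OB-/-/SHP-/- against OB-/-, given above, for Top2a in OB-/- (-0.11 against 1.18), and for Foxm1 in OB-/-/SHP-/- against wild-type, where 1 of 3 further probe sets read -0.03. When the probe sets of each gene were averaged, the calls of Cdkn1a (0.86, adjusted p = 0.082), Top2a (0.54, 0.0709), Foxm1 (0.27, 0.167), Nusap1 (0.33, 0.0852) and Racgap1 (0.41, 0.0579) in OB-/- against wild-type were lost, and Bub1b (0.36, adjusted p = 0.045) and Prc1 (0.44, 0.046) were called. In OB-/-/SHP-/- against SHP-/-, averaging lost Cdk4 (-0.39, adjusted p = 0.0617), Mcm7 (-0.33, 0.161) and Top2a (0.58, 0.0739) and gained Prc1 (0.53, 0.0338). Without probe sets whose names end in x_at or s_at, Mcm7 was not called in either comparison (-0.44, adjusted p = 0.0773, and -0.30, 0.263), nor Cdk4 without SHP (-0.17, adjusted p = 0.504). Probe sets of 1 gene can report different transcripts, and which of them measures the gene was not tested.

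**Figure D5:**
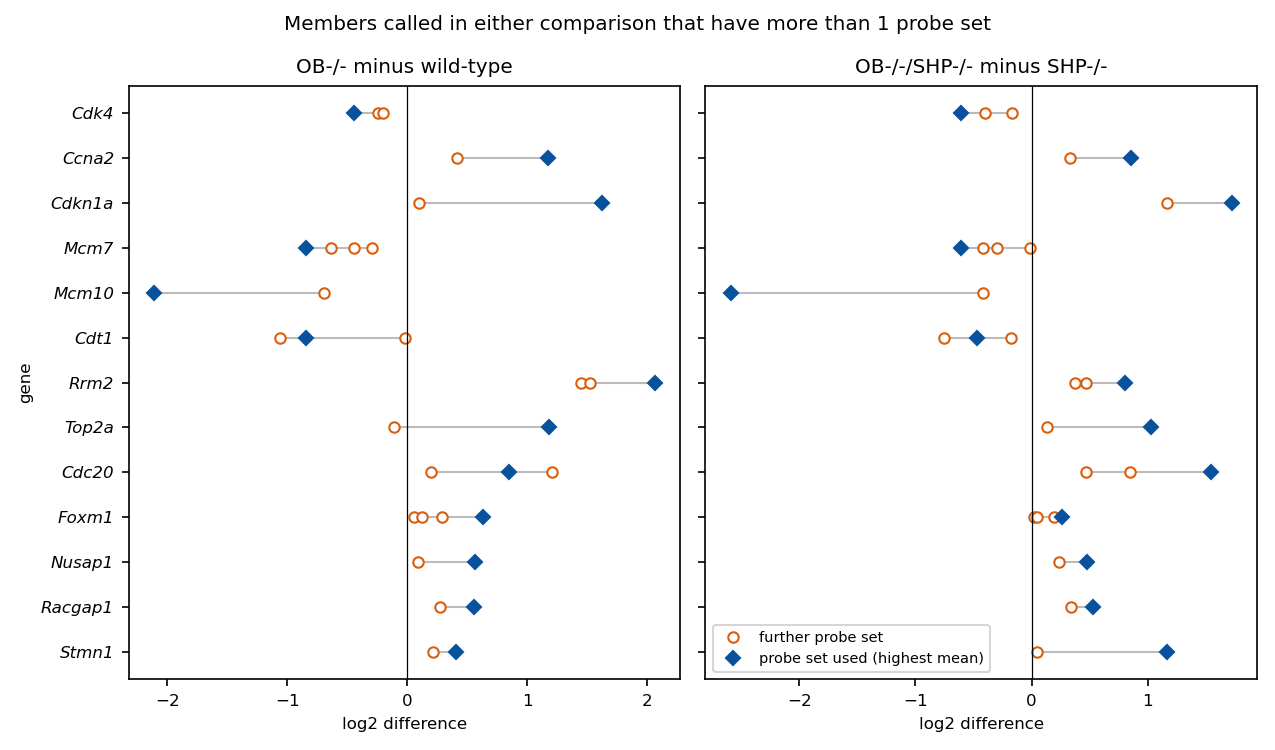
For each gene called in either leptin comparison that has more than 1 probe set, the filled diamond is the log2 difference of the probe set used and open circles are its further probe sets. The further probe sets of Rrm2 lie near the diamond in OB-/- minus wild-type (1.45 and 1.52 against 2.07), while that of Top2a lies at -0.11 against 1.18.

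Other genes of the same processes were taken from lists by function. Of 35 further DNA replication genes measured, out of 39, 5 were higher and 3 lower in OB-/- than in wild-type, and 1 was higher and 3 lower in OB-/-/SHP-/- than in SHP-/-. These are 14.3% higher and 8.57% lower in the first comparison, beside 7.58% and 9.36% of all genes, and 2.86% and 8.57% in the second, beside 4.95% and 5.62%, so that only the share higher in OB-/- was well above that of all genes. Rfc2 and Rfc1, subunits of the clamp loader, read 8.26 and 8.33 (wild-type), 8.08 and 8.21 (SHP-/-), 7.87 and 7.82 (OB-/-), and 7.66 and 7.52 (OB-/-/SHP-/-) for Rfc2 and 7.26 and 6.95 (wild-type), 6.96 and 6.98 (SHP-/-), 6.55 and 6.45 (OB-/-), and 6.43 and 6.42 (OB-/-/SHP-/-) for Rfc1. Both were lower on every leptin-null array, by -0.45 ± 0.13 (SE, adjusted p = 0.0391) and -0.60 ± 0.14 (SE, adjusted p = 0.0144) with SHP and by -0.55 ± 0.13 (SE, adjusted p = 0.0228) and -0.55 ± 0.14 (SE, adjusted p = 0.0333) without it. Rpa2, a subunit of the single-strand binding protein, rose in OB-/-/SHP-/- against SHP-/- by 0.90 ± 0.15 (SE, adjusted p = 0.00323). Dbf4, the activator of the Cdc7 kinase, and Orc4, of the origin recognition complex, rose in OB-/- by 0.82 ± 0.22 (SE, adjusted p = 0.0269) and 0.51 ± 0.14 (SE, adjusted p = 0.0298). Prim1, the primase, fell in OB-/- against wild-type, at -0.50 ± 0.15 (SE, adjusted p = 0.0463). With averaged probe sets Rfc1 was called in neither leptin comparison (adjusted p = 0.0707 and 0.0751), nor were Dbf4 (0.104) and Prim1 (0.0709) in OB-/-. With any 1 array left out the Rpa2 call held, and each of the other calls was lost at least once, that of Rfc2 with SHP without either wild-type array or either OB-/- array (highest adjusted p 0.171) and without SHP without either SHP-/- array or OB-/-/SHP-/- replicate 2 (highest adjusted p 0.13), that of Rfc1 with SHP without wild-type replicate 1 or either OB-/- array (highest adjusted p 0.125) and without SHP without either SHP-/- array, either OB-/- array or either OB-/-/SHP-/- array (highest adjusted p 0.123). The call of Dbf4 was lost without either wild-type array or OB-/- replicate 2 (highest adjusted p 0.232), that of Orc4 without wild-type replicate 2 or either OB-/- array (highest adjusted p 0.188) and that of Prim1 without wild-type replicate 2, either OB-/- array or either OB-/-/SHP-/- array (highest adjusted p 0.281).

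Further mitosis genes rose in OB-/- in 7 of 34 measured, out of 37, with none lower, and without SHP 3 rose and 2 fell. The share that rose in OB-/- was 20.6%, beside 7.58% of all genes, and without SHP 8.82% rose and 5.88% fell, near the 4.95% and 5.62% of all genes. Cdca3, which helps to trigger mitotic entry, read 4.62 and 4.53 (wild-type), 4.43 and 4.27 (SHP-/-), 5.60 and 5.43 (OB-/-), and 5.83 and 5.69 (OB-/-/SHP-/-). It rose by 0.94 ± 0.14 (SE, adjusted p = 0.00103) with SHP and 1.41 ± 0.14 (SE, adjusted p = 9.6e-05) without it, with no overlap of the arrays. With its probe sets averaged Cdca3 was called in neither, at 0.37 (adjusted p = 0.0708) and 0.42 (adjusted p = 0.0605). Cenpa, the histone of the centromere, read 4.26 and 4.42 (wild-type), 4.37 and 4.26 (SHP-/-), 5.08 and 5.35 (OB-/-), and 5.05 and 5.45 (OB-/-/SHP-/-), and rose by 0.88 ± 0.17 (SE, adjusted p = 0.00456) and 0.94 ± 0.17 (SE, adjusted p = 0.00519), the first call lost without wild-type replicate 1 or OB-/- replicate 2 (highest adjusted p 0.0539). Spc25, of the kinetochore, rose in OB-/- by 1.52 ± 0.28 (SE, adjusted p = 0.004). Ccnf, which encodes cyclin F, and Cks1b, a small subunit of cyclin-dependent kinases, fell in OB-/-/SHP-/- against SHP-/-, at -1.34 ± 0.23 (SE, adjusted p = 0.00408) and -0.67 ± 0.17 (SE, adjusted p = 0.0293). Ccnf read 6.09 and 5.79 (wild-type), 6.53 and 7.02 (SHP-/-), 5.67 and 5.85 (OB-/-), and 5.10 and 5.77 (OB-/-/SHP-/-). Its SHP-/- arrays were thus the highest, and in OB-/- against wild-type it differed by -0.17 ± 0.23 (SE, adjusted p = 0.683, limma). The Cks1b call was lost without either wild-type array, SHP-/- replicate 1 or OB-/-/SHP-/- replicate 2 (highest adjusted p 0.184).

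Among brakes, RB and E2F family genes and other cyclins, 28 of 32 measured, 4 were higher and 5 lower in OB-/-, and 2 higher and 3 lower without SHP. These are 14.3% and 17.9% in the first comparison, beside 7.58% and 9.36% of all genes, and 7.14% and 10.7% in the second, beside 4.95% and 5.62%. Ccnd3, cyclin D3, a partner of Cdk4, read 8.70 and 8.63 (wild-type), 8.83 and 8.94 (SHP-/-), 7.73 and 7.65 (OB-/-), and 7.96 and 7.94 (OB-/-/SHP-/-). It was lower on all leptin-null arrays, at -0.98 ± 0.13 (SE, adjusted p = 5.1e-04) and -0.93 ± 0.13 (SE, adjusted p = 0.00119), and the related Ccnd2 was lower by -0.87 ± 0.15 (SE, adjusted p = 0.0027) and -0.52 ± 0.15 (SE, adjusted p = 0.0491). The first Ccnd2 call was lost with averaged probe sets (-0.34, adjusted p = 0.067) and without probe sets ending in x_at or s_at (-0.34, adjusted p = 0.258). The second Ccnd2 call was lost with any 1 of the 8 arrays left out (highest adjusted p 0.257), and its sign turned, to 0.096, without probe sets whose names end in x_at or s_at. E2f8, a repressor among the E2F factors, read 4.11 and 4.56 (wild-type), 4.68 and 4.50 (SHP-/-), 3.45 and 3.82 (OB-/-), and 3.31 and 3.40 (OB-/-/SHP-/-) and was lower at -0.70 ± 0.18 (SE, adjusted p = 0.0209) and -1.23 ± 0.18 (SE, adjusted p = 0.00166), the first call lost without wild-type replicate 2 or OB-/- replicate 1 (highest adjusted p 0.168). Pkmyt1, a kinase that holds Cdk1 inactive, Cdkn1c, which encodes p57, and Btg1, an antiproliferative gene, rose in OB-/- by 0.61 ± 0.15 (SE, adjusted p = 0.0197), 0.66 ± 0.15 (SE, adjusted p = 0.00997) and 0.66 ± 0.19 (SE, adjusted p = 0.0334). Those calls were lost without wild-type replicate 1 or either OB-/- array (highest adjusted p 0.16) for Pkmyt1, without wild-type replicate 2 or OB-/- replicate 1 (highest adjusted p 0.0889) for Cdkn1c, and without either wild-type array or either OB-/- array (highest adjusted p 0.169) for Btg1. Btg1 also rose without SHP, at 0.86 ± 0.19 (SE, adjusted p = 0.0151), lost without SHP-/- replicate 1 or OB-/-/SHP-/- replicate 1 (highest adjusted p 0.0935) and with averaged probe sets (adjusted p = 0.063).

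Of 15 p53 targets measured, out of 18 listed, 3 were higher and none lower in OB-/-, and 3 higher and none lower without SHP, while 7.58% and 4.95% of all genes were higher. Ccng1, cyclin G1, read 7.36 and 7.28 (wild-type), 7.82 and 7.77 (SHP-/-), 8.64 and 8.20 (OB-/-), and 8.32 and 8.48 (OB-/-/SHP-/-), and rose by 1.10 ± 0.16 (SE, adjusted p = 9.8e-04) and 0.61 ± 0.16 (SE, adjusted p = 0.0346). The second call was lost without either wild-type array, either SHP-/- array or either OB-/-/SHP-/- array (highest adjusted p 0.172) and with averaged probe sets (0.098, adjusted p = 0.659). Perp, a membrane protein induced by p53, rose by 0.67 ± 0.13 (SE, adjusted p = 0.00633) and 0.61 ± 0.13 (SE, adjusted p = 0.016), lost without OB-/- replicate 1 (adjusted p = 0.0659) in the first and without either SHP-/- array or OB-/-/SHP-/- replicate 2 (highest adjusted p 0.0788) in the second. Trp53inp1, a stress-induced partner of p53, read 8.59 and 8.23 (wild-type), 8.87 and 8.85 (SHP-/-), 8.91 and 8.27 (OB-/-), and 10.44 and 9.75 (OB-/-/SHP-/-). The OB-/-/SHP-/- arrays stood above all others, and the gene was higher there than in OB-/- by 1.50 ± 0.25 (SE, adjusted p = 0.00828) and higher than in SHP-/- by 1.23 ± 0.25 (SE, adjusted p = 0.00984). The first of these was lost without OB-/- replicate 2 or OB-/-/SHP-/- replicate 1 (highest adjusted p 0.116). The median difference in OB-/- was 0.15 for the replication list, 0.16 for mitosis, 0.19 for brakes and other cyclins and 0.20 for p53 targets, beside -0.01 over all genes.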

How the data were processed

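Total RNA from liver was labelled with biotin and hybridised to Affymetrix arrays. The authors deposited log2 values for 22690 probe sets on 8 arrays, without raw scans here, and the submitters' processing notes name R 2.15.0. The method of background correction and normalisation is not given in the sources used here. The values ran from 2.20 to 14.19, and that the log has base 2 was read from this range. GEO's platform annotation assigned 20380 probe sets to 1 gene, 691 to several and 1555 to none, and 64 were controls. For each of 12393 genes the single-gene probe set with the highest mean was kept. Differences were fitted with limma 3.58.1 in R 4.3.3 (lmFit and eBayes, 1 mean per genotype over all 8 arrays, 4 residual degrees of freedom), and a gene was called at a Benjamini-Hochberg adjusted p under 0.05 over all genes. The script was tested on simulated data.

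The genes, their roles, the pathway lists and the motifs were chosen with earlier results of these data known, so no list has a p of its own. Genes were named by a rule: those called in any of the 6 comparisons, up to 4 uncalled genes per role by smallest p, and up to 3 genes per pathway list and direction by smallest adjusted p. Alternatives were other normalisations, filters, priors and probe set choices, a replicate block and each array left out. No duplicate arrays were found. The number of arrays limits the precision, with a median SE of 0.16 for these genes.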

Additional observations from a re-analysis of the deposited data

How the results depend on the processing

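Under every alternative tried for it, the median difference of the 45 genes stayed within 0.13 of its value in the main fit, in all 6 comparisons. This limit of 0.13 is the standard deviation, between arrays of 1 genotype, of the array median over the 45 genes. With 2-fold set as a minimum change, the counts of called genes were 12 for OB-/- minus wild-type, 9 for OB-/-/SHP-/- minus SHP-/-, 9 for OB-/-/SHP-/- minus wild-type and 0 for OB-/-/SHP-/- minus OB-/-. Keeping genes with a mean above the 40th percentile left 28 of the 45 genes and 13 calls between OB-/- and wild-type. When a gene's probe sets were averaged, 0 genes were called for SHP loss in lean mice and 0 in leptin-null mice, and the leptin calls that were lost are given with the probe sets above. Without probe sets whose names end in x_at or s_at, which can share probes with related sequences, 0 were called in lean mice, where Stmn1 read 0.0053, and Ccnd2 read 0.096 in OB-/-/SHP-/- minus SHP-/-. Quantile normalisation ended the calls of Cdc20 (limma adjusted p = 0.0512) and Nusap1 (0.0534) in OB-/- minus wild-type and of Ccna2 (0.0687) in OB-/-/SHP-/- minus SHP-/-. It also ended that of Foxm1 (0.0524) in OB-/-/SHP-/- minus wild-type. With equal array medians Ccna2 (0.0578) was lost in OB-/-/SHP-/- minus SHP-/-, and Foxm1 (0.0628) and Racgap1 (0.0559) in OB-/-/SHP-/- minus wild-type. Without OB-/- replicate 1 and SHP-/- replicate 1, the arrays that stood apart, the Mcm10 call for SHP loss in leptin-null mice was lost (-0.69). In OB-/- minus wild-type that setting also lost Cdt1 (-0.68), Cdc20 (0.65), Foxm1 (0.64), Kif20a (0.32), Nusap1 (0.39), Racgap1 (0.68) and Mki67 (0.40). Cdk4 (-0.55) and Mcm7 (-0.78) were lost in OB-/-/SHP-/- minus SHP-/-. Bub1b, Foxm1 and Racgap1 were lost in OB-/-/SHP-/- minus wild-type. With each array left out in turn, the counts ran from 0 to 2 for SHP-/- minus wild-type, 0 to 1 for OB-/-/SHP-/- minus OB-/-, 10 to 22 for OB-/- minus wild-type, 9 to 15 for OB-/-/SHP-/- minus SHP-/- and 7 to 21 for OB-/-/SHP-/- minus wild-type, and the interaction called 0 each time. Where 1 array of a genotype was left, it was assumed to vary like the others. For these settings, and for the replicate block below, the share of all genes called is not given. The counts therefore show how many calls remained, and not whether their excess over all genes held.

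The replicate numbers are not shown to pair the arrays, since deviations of equally numbered arrays correlated between -0.107 and 0.196. With the replicate block, 22 genes were called for OB-/- minus wild-type, 15 for OB-/-/SHP-/- minus SHP-/-, 21 for OB-/-/SHP-/- minus wild-type and 1 for each SHP comparison. In OB-/-/SHP-/- minus SHP-/- Ccna2 was lost (adjusted p = 0.0532) and Kif20a gained (0.0479), in OB-/- minus wild-type Mcm6 (0.0408) and Tk1 (0.0256) were gained, and Prim1 was lost there (0.0528). A fit to the arrays compared alone was not run for the interaction, which needs all 8.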
